A study of Mus musculus with 8 samples.

Results

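Bone marrow stromal cells kept in osteoinductive medium during a space flight were compared with cells kept in the same medium on the ground. The comparison uses 4 of the series' 8 arrays, chosen by the medium and the flight or ground location that the labels give: 2 flight arrays and 2 ground-based arrays. The cells came from the femurs and tibiae of C57BL/6 mice aged 6 to 8 weeks, carried no genetic change that the labels name, and grew on Skelite, a resorbable calcium phosphate ceramic used as a bone scaffold. The cells of all 4 arrays therefore shared the strain, the scaffold and the osteoinductive medium. One flight array held cells in microgravity and the other held cells on a 1g centrifuge in the same incubator, both in automated incubation units inside the KUBIK space incubator. On the ground, one array held cells in the same kind of incubation unit operated by hand and the other held cells in culture dishes in the laboratory. Both ground-based arrays thus lacked the automated hardware, so that flight and automation cannot be told apart. Where 4 values are given below, they run in the order microgravity and centrifuge for flight, then unit and dish for the ground. The other 4 arrays, with the same layout in growth medium, entered the estimate of the spread and are used to ask whether the flight difference depended on the medium.

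The centrifuge array's labels disagree with each other. Its gravity is given as microgravity although its title and source name place it on the centrifuge, and one of its descriptive sentences speaks of growth medium although the array is labelled osteo-induced. The medium was therefore read from the genes that separate the media on the ground. There, 57 genes differed by at least 1 log2 unit between osteoinductive and growth medium in both the unit pair and the dish pair, 55 of them higher in osteoinductive medium. All 57 differed in the same direction in the centrifuge pair, by a median size of 1.91 log2 units, and all 57 did so in the microgravity pair, by 1.88, next to 1.41 in the unit pair and 1.86 in the dish pair. Fkbp5, a chaperone of the glucocorticoid receptor and a standard target of the dexamethasone found in most osteoinductive media, is one gene that shows this. Its log2 intensity was 11.41 and 11.56 on the osteoinductive flight arrays and 10.96 and 11.55 on the osteoinductive ground-based arrays, while all 4 growth medium arrays lay between 8.95 and 9.05.

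Marrow stromal cells are the adherent, fibroblast-like cells of the marrow, a population that holds the progenitors of osteoblasts, adipocytes and cartilage cells. An osteoinductive medium pushes them toward the osteoblast, the cell that lays down collagen and mineralises it. Their growth and their matrix are known to respond to mechanical load, and bone is lost during space flight. The cells' identity was checked on 18 tested markers of marrow stroma. The summed intensity of all 19 measured markers was 46990 and 46240 on the flight arrays, against 47860 and 49700 on the ground-based arrays. Of the 18, 13 did not pass the test described next, among them Col1a1, Col1a2, Col3a1, Thy1 and Pdgfra. Vcam1, Cd44 and Prrx1 were lower in flight and passed, at -0.84, -0.70 and -0.52, and Eng and Lum were higher and passed, at 0.98 and 0.64. Lepr lay below the intensity filter.

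Values are log2 of the intensities that the authors deposited, and a difference of 1 log2 unit is 2-fold. A gene passed the test where limma's moderated test over 13205 genes gave a Benjamini-Hochberg adjusted p under 0.05, two-sided. No label says whether the arrays came from separate animals or cultures. The 2 arrays of a group are different culture conditions. The spread behind a p-value here thus holds microgravity against centrifuge and ground unit against dish. Beyond these differences it may be technical only. Against this test 2479 genes changed, 18.8% of those tested. Of these, 938 were higher in flight (7.10% of tested genes) and 1541 were lower (11.7%), and the median difference over all tested genes was -0.09. Fold changes of at least 2 were seen for 234 of the higher and 110 of the lower genes. With each array centred on its own median, which moves the median gene by 0.08 log2 units, 767 genes were higher and 2449 lower, so that higher calls made up 37.84% of all calls as deposited and 23.85% after centring. Leaving out 1 array lowered the count of changed genes, to 1266 without the centrifuge array, 1110 without the microgravity array, 936 without the dish array and 861 without the ground unit array. In a bulk culture, fewer cells of a type and less RNA per cell cannot be told apart.

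**Figure D1:**
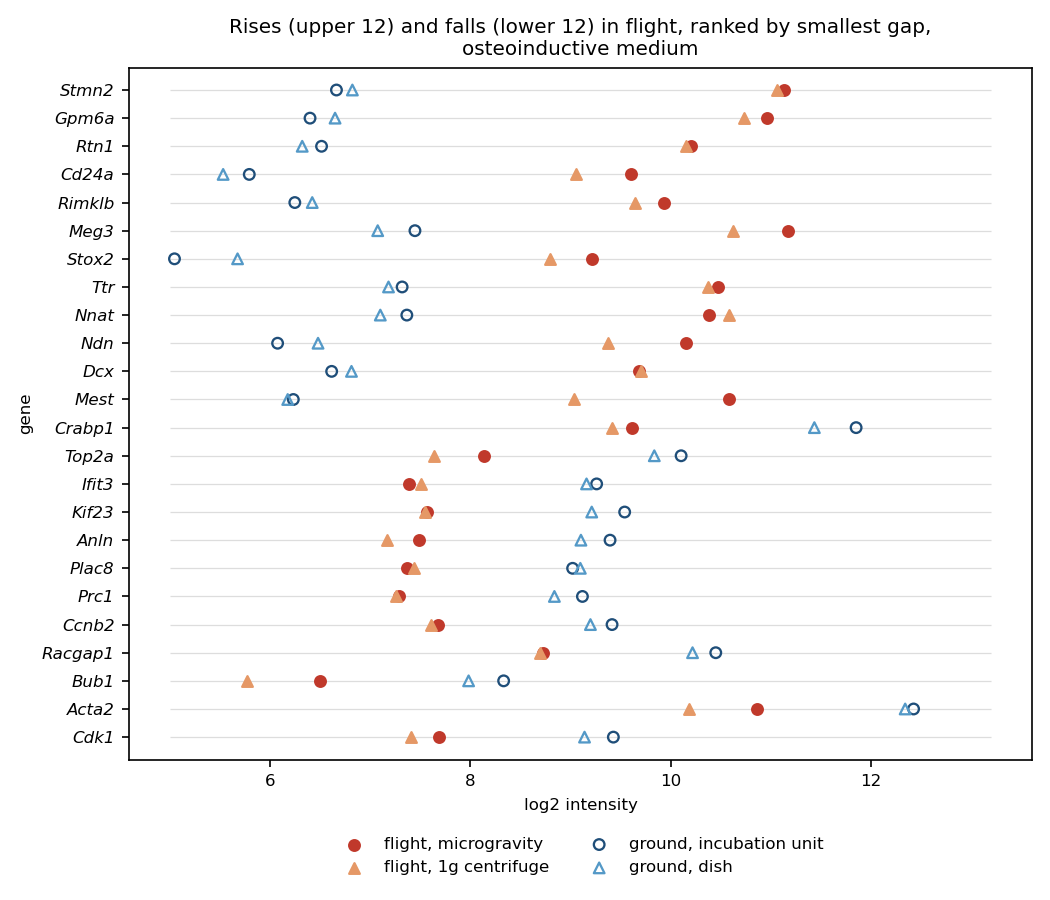
Log2 intensity of 12 genes that rose and 12 that fell in flight in osteoinductive medium, ranked by the smallest of the 4 differences between a flight and a ground-based array, 1 row a gene and 1 point an array (filled circle microgravity, filled triangle centrifuge, open circle ground unit, open triangle ground dish). The ranking itself sets the flight points of each gene apart from its ground-based points, and the difference of means is 4.36 log2 units for Stmn2.

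Genes of cell division fell together in flight. Of 50 tested genes of mitosis and cytokinesis, 48 fell and none rose, with a median difference of -1.11 log2 units. Bub3 and Kif22 did not pass the test at -0.20 and -0.34. Of the 50, 14 had a flight mean below the intensity filter and passed it only through other arrays. With no filter 54 of the 58 measured fell and none rose, with a median of -1.09, where 6.74% of all measured genes fell. Of 42 tested genes of DNA replication, 29 fell and none rose, with a median of -0.56. Here 5 had a flight mean below the filter, and with no filter 25 of the 43 measured fell and none rose. Without the microgravity array, 39 mitosis genes and 21 replication genes still passed as lower, where 4.62% of all tested genes did. Over the 4 fits that leave out 1 array each, between 38 and 47 mitosis genes and between 13 and 21 replication genes fell. The flight arrays also had higher summed levels of neuronal markers (22570 and 20790 in flight, against 8886 and 8759 on the ground) and of the muscle and lung markers given further on, and the part of these in the falls was not tested.

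Top2a, the topoisomerase that untangles chromosomes before they part, fell most among them. Its log2 intensity was 8.13 and 7.64 in flight, against 10.11 and 9.84 on the ground, a difference of -2.08 (SE 0.16, limma adjusted p = 6.61e-06). The centrifuge array was the lowest. Bub1, a kinase of the spindle checkpoint, was 6.50 and 5.76 in flight, against 8.33 and 7.98 on the ground, a difference of -2.03. Cdk1, the kinase that starts mitosis, was 7.68 and 7.40 in flight, against 9.43 and 9.14 on the ground, a difference of -1.74.

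Cytokinesis, the pinching of one cell into daughters, was represented among the deepest falls by Anln at -1.93, Kif23 at -1.82, Prc1 at -1.71 and Racgap1 at -1.62, which build the contractile ring and the central spindle. Kif23 was 7.57 and 7.55 in flight, against 9.54 and 9.21 on the ground. Ccnb2, the cyclin B2 that pairs with Cdk1, fell by 1.66. In replication, Dbf4, the activator of the kinase that fires origins, fell by 1.65, with 6.97 and 6.93 in flight against 8.81 and 8.39 on the ground. Mcm6 and Mcm4, subunits of the replicative helicase, fell by 0.86 and 0.80, and Rrm2, a subunit of ribonucleotide reductase, fell by 0.83. Pcna, the sliding clamp, was at -0.30 and did not pass. The fall in growth medium covered 47 of the 50 mitosis genes (5.79% of all tested genes were lower there) and 16 of the 42 replication genes, with medians of -0.95 and -0.28.

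Many promoters of mitotic genes carry the cell cycle homology region, TTTGAA, which the DREAM and MuvB complexes read. Among the 40 mitosis genes that fell and have a promoter in the RefSeq table, 15 (37.5%) held these letters on either strand in the 250 bases before the start site, as did 12.5% of the 10468 tested genes with a promoter. Among 25 replication genes that fell, 4 (16%) held it. The E2F letters TTTCCCGC were present in 2 of those 25 (8%) and in 0 of the 40 mitosis genes, against 1.91% of all. The 3 genes of largest difference that hold the motif are shown as stretches of 80 bases on the gene's strand (RefSeq, GRCm38.p6), with the motif in capitals. Top2a lies on chromosome 11, with the stretch at chr11:99024190-99024269 on the minus strand, Ect2, a regulator of the contractile ring, at chr3:27153943-27154022 on the minus strand, and Cdk1 at chr10:69352913-69352992 on the minus strand.
Top2a: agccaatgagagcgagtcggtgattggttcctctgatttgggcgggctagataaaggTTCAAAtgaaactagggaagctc
Ect2: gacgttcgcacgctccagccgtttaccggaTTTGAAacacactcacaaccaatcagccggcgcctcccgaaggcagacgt
Cdk1: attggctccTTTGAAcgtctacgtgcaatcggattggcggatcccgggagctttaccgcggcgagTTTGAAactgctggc
Cdk1 held the letters at both ends of the stretch. A match describes the letters alone and is no measured binding site.

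Genes of the unfolded protein response, by which cells raise the chaperones of the endoplasmic reticulum when secreted proteins misfold, were lower in flight. Of 36 tested genes of the response and of folding in the endoplasmic reticulum, 23 fell and none rose, with a median of -0.56. Sdf2l1, a chaperone partner in that compartment, was 8.54 and 8.89 in flight, against 10.56 and 10.21 on the ground, a difference of -1.67 (SE 0.17, adjusted p = 5.01e-05). Creld2, a protein of that compartment that the response induces, was 9.44 and 9.72 in flight, against 11.13 and 10.90 on the ground, a difference of -1.44. In both genes the microgravity array was the lowest. Both were named for the size of their fall, which largely fixes the gap between their groups.

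Hyou1, an endoplasmic reticulum chaperone of the Hsp70 family, fell by 1.19 and Ddit3, a transcription factor of prolonged stress, fell by 1.07, while Pdia4, a disulphide isomerase, differed by -1.02. Atf4, Atf6 and Ern1, sensors or transcription factors of the response, were at -0.39, -0.29 and -0.33 and did not pass. Without the microgravity array 12 genes of the list passed as lower, with a median of -0.50, and over the 4 fits that leave out 1 array between 10 and 17 did. In growth medium 16 fell, with a median of -0.46.

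The promoter element of this response, CCAAT and CCACG with any 9 bases between them, was present on either strand in 8 of the 21 fallen genes with a promoter (38.1%) and in 16 of the 10468 tested genes with a promoter (0.153%). Creld2 (chr15:88819490-88819569, plus strand), Ero1b, an oxidase that makes disulphide bonds (chr13:12565652-12565731, plus strand), and Pdia6, another disulphide isomerase (chr12:17266461-17266540, plus strand), fell most among its holders. The element is in capitals.
Creld2: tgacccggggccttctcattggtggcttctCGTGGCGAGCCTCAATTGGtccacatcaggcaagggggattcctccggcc
Ero1b: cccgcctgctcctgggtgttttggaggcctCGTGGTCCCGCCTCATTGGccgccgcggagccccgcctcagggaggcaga
Pdia6: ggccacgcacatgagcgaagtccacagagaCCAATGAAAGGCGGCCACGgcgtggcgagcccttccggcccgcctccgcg
Creld2 and Ero1b held it on the opposite strand and Pdia6 on the gene's strand. Beside Creld2, Ero1b differed by -0.84 and Pdia6 by -0.79.

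The heat shock chaperones of the cytosol gave a smaller count. Of 27 tested, 4 fell (14.8%) and none rose, where 11.7% of all tested genes fell. The median was -0.26, and -0.28 without the microgravity array.

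Interferon-stimulated genes, the antiviral set that cells switch on in answer to interferon, were lower in flight in osteoinductive medium. Of 38 tested members 30 fell and none rose, with a median of -0.72, and 19 passed without the microgravity array, with a median of -0.73. Between 15 and 19 passed when any 1 of the 4 arrays was left out. Ifit3, an antiviral protein of the IFIT family, was 7.39 and 7.50 in flight, against 9.26 and 9.16 on the ground, a difference of -1.76 (SE 0.22, adjusted p = 0.000271). Cxcl10, a chemokine that draws T cells, was 7.11 and 7.40 in flight, against 9.11 and 8.72 on the ground, a difference of -1.66. Cxcl10 was named for the size of its fall, so that the gap between its flight and ground-based arrays follows largely from that choice.

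Gbp3, a guanylate-binding protein, fell by 1.16, Bst2, which tethers virus particles to the cell surface, by 1.15, Oasl2, a member of the oligoadenylate synthetase family, by 1.07, and Irf7, the transcription factor that amplifies the response, by 0.98. Ifitm1 was at 0.38, Ifitm3 at -0.22 and Oas3 at -0.26, and none of these passed. In growth medium the same list held 5 lower genes and no higher ones, with a median of -0.31. There Ifit3 was 10.01 and 10.88 in flight, against 10.43 and 10.80 on the ground, and the arrays overlapped.

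The difference between the media was tested as an interaction, the osteoinductive flight difference minus the growth one. It was below 0 for 35 of the 38 interferon genes, with a median of -0.36. The share of all tested genes below 0 was not counted, and members of a list are not replicates. In limma 0 of the 38 passed. An unadjusted p under 0.05 was found for 13 of the 38, and for 3.98% of all tested genes. For Ifit3 the interaction was -1.59 (limma adjusted p = 0.647) and for Cxcl10 -1.48. Without the microgravity array of the growth medium, 15 genes passed with a lower interaction, among them Bst2, Cxcl10, Gbp3 and Ifit3 of this list.

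**Figure D2:**
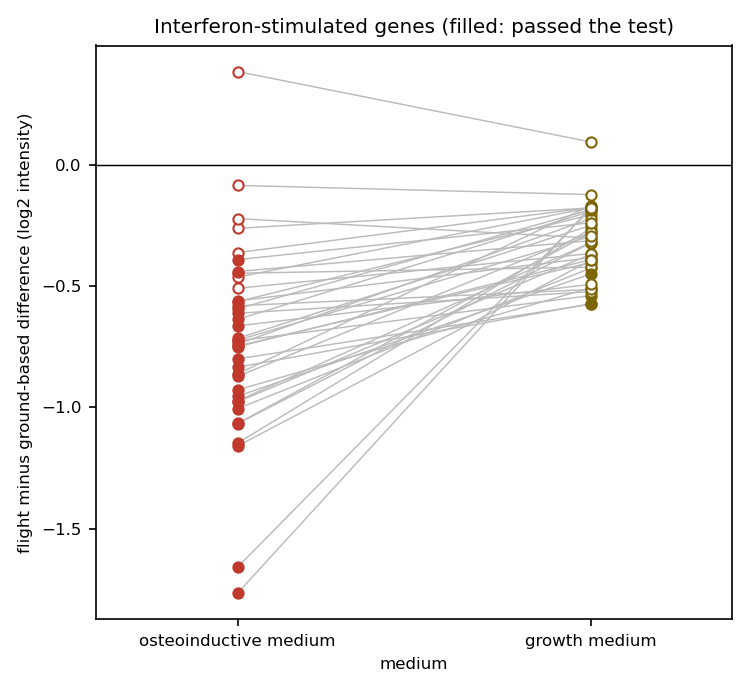
Flight minus ground-based difference in log2 intensity of the 38 tested interferon-stimulated genes in osteoinductive medium (left) and in growth medium (right), 1 line a gene, filled where the gene passed the test in that medium. In osteoinductive medium 30 genes passed as lower, and in growth medium 5, and the interaction passed for none.

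The interferon-stimulated response element, searched as GAAA, any 2 bases and GAAA, was present on either strand in 10 of the 23 fallen members with a promoter (43.5%) and in 2.99% of all 10468. The 3 holders with the largest differences are Ifit3 (chr19:34583377-34583456, plus strand), Cxcl10 (chr5:92349053-92349132, minus strand) and Gbp3 (chr3:142559964-142560043, plus strand). Capitals mark the element, which Gbp3 holds as a pair of overlapping matches.
Ifit3: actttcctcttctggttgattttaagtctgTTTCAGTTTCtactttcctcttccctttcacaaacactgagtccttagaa
Cxcl10: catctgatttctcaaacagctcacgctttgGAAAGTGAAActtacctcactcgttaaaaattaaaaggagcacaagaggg
Gbp3: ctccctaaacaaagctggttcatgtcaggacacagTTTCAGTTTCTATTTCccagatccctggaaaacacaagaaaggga

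Antioxidant genes controlled by NRF2 also fell. Of 26 tested, 12 fell and none rose, with a median of -0.50, and 9 passed without the microgravity array. Gclm, the regulatory subunit of the enzyme that limits glutathione synthesis, was 9.51 and 9.63 in flight, against 11.14 and 10.88 on the ground, a difference of -1.44. Hmox1, haem oxygenase 1, was 9.97 and 10.27 in flight, against 11.64 and 11.44 on the ground, a difference of -1.42. For both, each flight array lay more than 1 log2 unit below each ground-based array. Both were named for the size of their fall, so that this gap follows largely from the choice.

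Srxn1, which repairs oxidised peroxiredoxins, fell by 1.14, and Txnrd1, thioredoxin reductase, by 0.99. Gclc, the catalytic partner of Gclm, was at -0.09 and Slc7a11, the cystine importer, at -0.45, and neither passed. In growth medium 3 genes of the list fell, and the interaction passed for none. The core of the antioxidant response element, TGACNNNGC, was present in 3 of 9 fallen members with a promoter (33.3%) and in 13.6% of all.

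Crabp1, a carrier of retinoic acid in the cytosol, fell most of all genes by the rule that ranked them. It was 9.62 and 9.42 in flight, against 11.85 and 11.44 on the ground, a difference of -2.13 (SE 0.19, adjusted p = 2.33e-05), and -0.69 in growth medium. Plac8, a cysteine-rich protein, fell by 1.66. Tfrc, the transferrin receptor that takes up iron, was 9.02 and 8.37 in flight, against 9.87 and 9.84 on the ground, a difference of -1.16.

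The actin cytoskeleton was lower in part. Acta2, smooth muscle actin and a marker of contractile stromal cells, was 10.87 and 10.19 in flight, against 12.43 and 12.34 on the ground, a difference of -1.86 (SE 0.19, adjusted p = 5.6e-05). Of 27 tested genes of actin and smooth muscle, 11 fell and 1 rose, with a median of -0.35. Cnn2, a calponin, fell by 1.00, Tpm1, a tropomyosin, by 0.65, Flna, a filamin that links actin filaments, by 0.59, and Vim, the intermediate filament vimentin, by 0.61. Tagln and Myl9, other smooth muscle genes, were at 0.27 and -0.25 and did not pass. The 1 gene that rose was Fhl1, a LIM protein abundant in skeletal muscle, at 10.13 and 8.91 in flight, against 7.44 and 7.33 on the ground. Without 1 array between 4 and 6 of the 27 fell. Tpm1 lost its call without the ground unit array at -0.57, and Flna without any 1 array but the microgravity one, at values between -0.60 and -0.48.

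Integrins and focal adhesion genes gave 5 falls and no rise among 24 tested, with a median of -0.22. These are 20.8% changed, where 18.8% of all tested genes changed and 11.7% fell. Itga11, a collagen-binding integrin subunit, fell by 0.71, Parva, an actin-binding adhesion protein, by 0.60, Itgav, the alpha-v subunit, by 0.53, Itgb5 by 0.48 and Tln1, the talin that activates integrins, by 0.41. Itgb1, Ilk and Pxn were at -0.07, -0.29 and 0.08 and did not pass. Of the 5, Itga11 passed whichever array was left out. Itgav, Itgb5 and Tln1 lost their calls without any 1 array, at values between -0.54 and -0.36, and Parva did at -0.56 without the microgravity array and -0.47 without the ground unit array.

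Collagen and matrix assembly genes gave 9 falls and 1 rise among 31, with a median of -0.32. Of the 31, 29.0% fell, where 11.7% of all tested genes did. The type I chains did not pass: Col1a1 was at 0.11 and Col1a2 at -0.22. Col8a1, a short-chain collagen of vessel and fibroblast matrix, was 8.67 and 8.87 in flight, against 9.98 and 9.72 on the ground, a difference of -1.08. Loxl1, a cross-linking oxidase, fell by 0.70, and Col6a1 and Col6a2, chains of type VI collagen, by 0.65 and 0.58. Serpinh1, the collagen-specific chaperone, fell by 0.71. Col14a1, a fibril-associated collagen, was the 1 that rose, by 1.01. Without 1 array 5 or 6 of the 31 fell. Col6a1 lost its call without the centrifuge array at -0.50 and without either ground-based array at -0.65, and Col6a2 without the dish array at -0.54.

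Among 23 matricellular proteins and small leucine-rich proteoglycans, 5 rose and 2 fell. These are 30.4% changed and 8.7% fallen, where 18.8% of all tested genes changed and 11.7% fell. Of the 23, 1, Lum, had a ground-based mean below the filter and passed it only through other arrays. Tnc, tenascin C, a matrix protein of remodelling tissue and periosteum, was 9.94 and 9.82 in flight, against 11.52 and 11.24 on the ground, a difference of -1.50 (SE 0.16, adjusted p = 8.67e-05). Its difference in growth medium was -0.37. Ccn4, a Wnt-induced matricellular protein, fell by 0.70. Sparcl1, a relative of osteonectin found in vessels and brain, was 10.49 and 9.45 in flight, against 7.38 and 7.35 on the ground, a difference of 2.60. Ccn3, Lum, Smoc1 and Smoc2 rose by 0.84, 0.64, 0.49 and 0.39, and of these Ccn3 alone passed without the microgravity array, where Lum was at 0.55, Smoc1 at 0.47 and Smoc2 at 0.42. Ccn4 lost its call there at -0.57, and without the ground unit array at -0.58, where Lum, Smoc1 and Smoc2 did not pass either. Sparc, Postn, Dcn and Bgn lay between -0.18 and 0.35 and did not pass.

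Of 14 elastic fibre genes 3 rose and 2 fell. These are 35.7% changed and 14.3% fallen, where 18.8% of all tested genes changed and 11.7% fell. Of the 14, 1, Fbn2, had a ground-based mean below the filter and passed it only through other arrays. Eln, elastin, was 11.86 and 9.62 in flight, against 8.46 and 8.51 on the ground, a difference of 2.26 (adjusted p = 0.00759), and 1.13 without the microgravity array. Fbn2, the fibrillin of developing tissue, rose by 1.03, and Ltbp2, which associates with microfibrils, fell by 1.08.

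Genes of the osteoblast did not move as a group. Of 30 listed genes of osteoblast differentiation and mineralisation, 25 were measured and 20 passed the filter on dim genes. Of these 20, 1 rose and 1 fell, with a median of -0.03. These are 10.0% changed, where 18.8% of all tested genes changed. Ibsp, bone sialoprotein, which binds hydroxyapatite, was 8.00 and 7.64 in flight, against 6.36 and 6.46 on the ground, a difference of 1.41 (SE 0.19, adjusted p = 0.000369). In growth medium its difference was 2.05. Of the 20, Ibsp alone had a ground-based mean below the filter, where an array's background weighs on the value. It passed the filter only through the flight arrays of both media. With 32 added to every intensity its difference in osteoinductive medium was 1.14. With no filter 1 of the 25 measured rose and none fell. Ank, a transporter that exports pyrophosphate, an inhibitor of mineral, fell by 0.44 and lost its call without any 1 array, at values between -0.45 and -0.42.

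The other 18 did not pass. Alpl, the phosphatase that clears pyrophosphate, was at 0.28, Dlx5, a homeobox factor of osteoblasts, at 0.43, Pth1r, the parathyroid hormone receptor, at 0.29, and Dmp1, a matrix protein of osteocytes, at 0.01. For Dlx5 the difference in growth medium was 1.30, and the interaction passed with a lower value once the centrifuge array of the growth medium was left out. Sp7, the osteoblast transcription factor osterix, lay below the intensity filter. The design may have little power for changes of this size. On simulated data with the spread of these arrays, 50 of 13205 genes were changed at each size. The test recovered 24% of changes of 0.5 log2 units and 94% of changes of 1 unit. In the data 2479 genes passed, which sets a looser p-value cutoff, so these shares need not hold there. A gene that did not pass may still have changed.

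**Figure D3:**
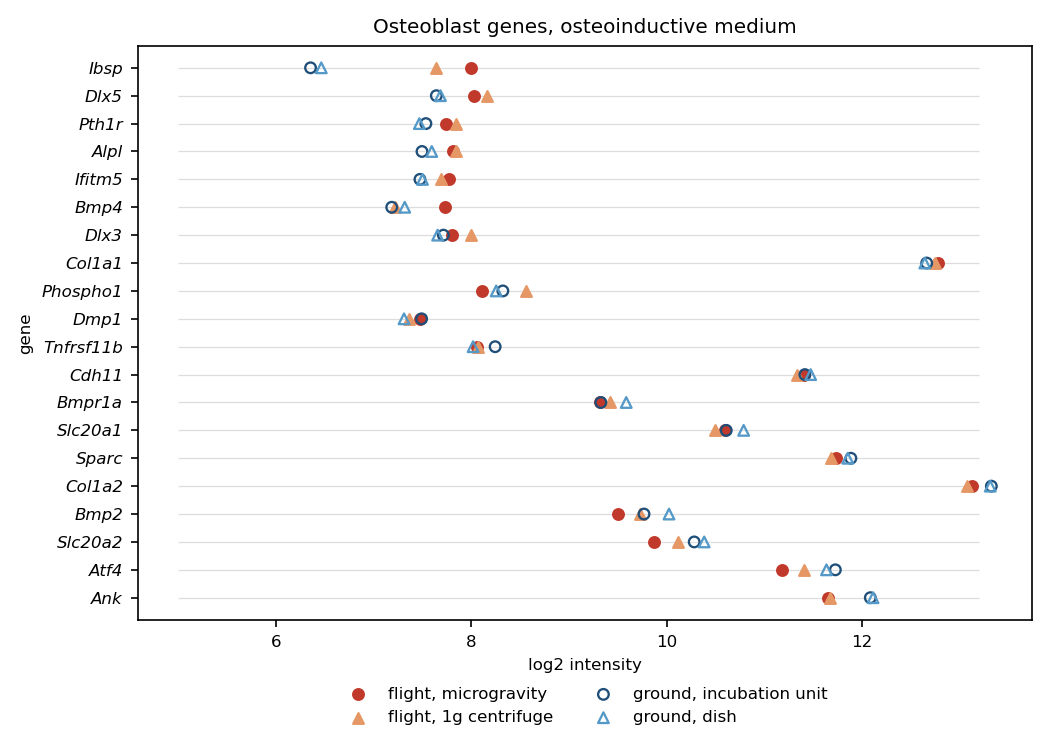
Log2 intensity of the 20 tested osteoblast genes, 1 row a gene and 1 point an array (filled circle microgravity, filled triangle centrifuge, open circle ground unit, open triangle ground dish), ordered by the flight minus ground-based difference. Ibsp at the top has both flight arrays above both ground-based arrays, and most other genes show points that lie together.

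Pathways that steer the osteoblast gave shares of changed genes close to the 18.8% of all tested genes. Among 34 genes of BMP and TGF-beta signalling 4 rose and 3 fell, 20.6% in all. Id4 and Id2, inhibitors of bHLH factors and targets of BMP signals, rose by 0.86 and 0.70, and Tgfb3, a TGF-beta ligand, fell by 0.73. Id1, Id3, Bmp2 and Bmp4 lay between -0.28 and 0.23 and did not pass. Among 26 Wnt genes, 1 rose and 3 fell, 15.4% in all. Sfrp2, a secreted Wnt modulator, was 8.74 and 8.52 in flight, against 7.26 and 7.47 on the ground, a difference of 1.26, while Dkk2, Lef1 and Fzd2, an antagonist, a transcription factor and a receptor, fell by 0.81, 0.60 and 0.47. Axin2, the usual readout of beta-catenin, was at 0.02. Lef1 and Fzd2 lost their calls without any 1 array, at values between -0.62 and -0.40, and Id2 did without the microgravity array at 0.58 and without the ground unit array at 0.65.

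Signals by which stromal cells control osteoclasts, the cells that resorb bone, gave 3 falls and no rise among 16. These are 18.8% changed, the same share as over all tested genes, of which 11.7% fell. Tnfsf11, the osteoclast-inducing ligand RANKL, was at 0.02 and its decoy receptor Tnfrsf11b at -0.07. Ptgs2, the inducible cyclooxygenase, was 10.78 and 10.86 in flight, against 11.85 and 11.50 on the ground, a difference of -0.86. Vcam1, an adhesion molecule for marrow cells, fell by 0.84, and Csf1, the growth factor of macrophages and osteoclasts, by 0.53. Ptgs2 lost its call without the ground unit array at -0.69, Vcam1 without that array at -0.81 and without the centrifuge array at -0.61, and Csf1 without any 1 array. Of 10 tested osteoclast genes, Acp5, the tartrate-resistant phosphatase, rose by 0.62 and lost its call without any 1 array, at values between 0.50 and 0.74. In limma 0 of 13 tested macrophage markers passed, and 4 had an unadjusted p under 0.05.

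Targets of the glucocorticoid receptor gave 3 rises and 2 falls among 21, 23.8% in all, where 18.8% of all tested genes changed. Cdkn1c, a cell cycle inhibitor that is also imprinted, was 9.13 and 9.02 in flight, against 7.71 and 7.50 on the ground, a difference of 1.47 (SE 0.14, adjusted p = 2.66e-05). Mgp, matrix Gla protein, an inhibitor of calcification, was 10.51 and 10.68 in flight, against 11.61 and 11.55 on the ground, a difference of -0.98. Fkbp5, Tsc22d3, Per1 and Klf9, targets shared by many tissues, lay between -0.12 and 0.23 and did not pass.

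Of the 18 markers of marrow stroma, Eng, a TGF-beta co-receptor shared with endothelium, and Lum, the proteoglycan lumican, rose by 0.98 and 0.64. Both had a ground-based mean below the filter and passed it only through other arrays. Vcam1, Cd44, the hyaluronan receptor, and Prrx1, a homeobox factor of mesenchyme, fell by 0.84, 0.70 and 0.52. Without the microgravity array Vcam1 alone passed, at -1.06, while Eng and Lum were at 0.55, Cd44 at -0.67 and Prrx1 at -0.48. Cd44 did not pass without any 1 array.

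The other fates of stromal cells differed in their counts. Of 17 tested cartilage genes 6 rose and none fell, with a median of 0.32, also without the microgravity array. Of these 17, 6 had a ground-based mean below the filter and passed it only through other arrays. With no filter 5 of the 24 measured rose and none fell, where 6.21% of all measured genes rose. Col2a1, the main collagen of cartilage, was 9.68 and 9.84 in flight, against 8.69 and 8.51 on the ground, a difference of 1.16 (adjusted p = 0.00013). Matn1 and Acan, a matrilin and the proteoglycan aggrecan, rose by 0.75 and 0.70, and Sox9, the factor that starts cartilage formation, was at -0.11. Of 22 genes of fat cell regulation and lipid carriage, Apoe rose by 0.73 and the rest did not pass, among them Cebpa at 0.24 and Fabp4 at 0.23. Apoe was at 0.51 without the microgravity array, 0.71 without the ground unit array and 0.74 without the dish array and passed in none of these, and Acan was at 0.58 and did not pass without the ground unit array.

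Sterol synthesis gave 7 falls and 1 rise among 23, so that 30.4% fell, where 11.7% of all tested genes did, and between 2 and 5 fell when 1 array was left out: Fdps, which makes the isoprenoid farnesyl diphosphate, fell by 1.14, Cyp51 by 0.82, and Hmgcs1, HMG-CoA synthase, rose by 0.53. Hmgcs1 lost its call without the microgravity, ground unit or dish array, at values between 0.39 and 0.58. Hypoxia and glycolysis gave 6 falls and 2 rises among 32, so that 18.8% fell, and between 0 and 3 fell when 1 array was left out. Aldoc, the aldolase of brain, was 9.51 and 9.35 in flight, against 7.48 and 7.34 on the ground, a difference of 2.02. Without any 1 of the microgravity, centrifuge and dish arrays 2 genes of this list rose and none fell. Of 19 clock genes 4 fell (21.1%) and none rose, and 1 or 2 fell when 1 array was left out. Ciart, a repressor in the clock, fell by 1.16 with 7.75 and 7.89 in flight, against 8.93 and 9.04 on the ground, and passed whichever array was left out. Bhlhe40, Nfil3 and Bhlhe41, transcriptional repressors of the clock's output, fell by 0.63, 0.61 and 0.43. Bhlhe40 lost its call without the centrifuge array at -0.62 and without the dish array at -0.54, Bhlhe41 without any 1 array but the centrifuge one, at values between -0.44 and -0.35, and Nfil3 without any 1 array, at values between -0.71 and -0.51. Arntl, Per2 and Nr1d1 lay between -0.17 and 0.11 and did not pass.

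Immediate early genes gave 7 falls among 30 (23.3%), where 11.7% of all tested genes fell, and between 0 and 2 when 1 array was left out. Fos, Jun and Egr1 lay between -0.10 and 0.13 and did not pass. Among 31 ribosomal protein genes 3 fell (9.7%), among 39 genes of the respiratory chain 1 fell (2.6%), among 23 p53 targets 3 fell (13%), and among 38 lysosomal genes 2 fell (5.3%) and 1 rose. The shares of fallen genes in these 4 groups were near or below that of all genes.

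Genes of neurons, of fetal growth and of imprinted loci were among the largest rises. Ranked by the smallest of the 4 differences between a flight and a ground-based array, which puts flight apart from ground for each gene it picks, the first 12 were Stmn2, Gpm6a, Rtn1, Cd24a, Rimklb, Meg3, Stox2, Ttr, Nnat, Ndn, Dcx and Mest. Stmn2, a tubulin-binding protein of growing axons, was 11.13 and 11.06 in flight, against 6.66 and 6.82 on the ground, a difference of 4.36 or 20.5-fold (SE 0.11, adjusted p = 1.19e-09). Gpm6a, a membrane protein of neurites, was 10.96 and 10.73 in flight, against 6.40 and 6.65 on the ground, a difference of 4.32. The ground-based values of both lie under the intensity filter of 7.14, where an array's background weighs on the value, and with 32 added to every intensity the difference of Gpm6a was 3.91. Of the 938 higher genes, 306 had a ground-based mean below that filter. By the difference of means Sftpc, a lung surfactant gene given further on, rose more than Stmn2, by 4.47, and it ranks lower by the rule above because its flight arrays differed from each other.

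Ttr, transthyretin, the thyroxine carrier made in liver and choroid plexus, was 10.47 and 10.37 in flight, against 7.32 and 7.18 on the ground, a difference of 3.17. Cd24a, a glycoprotein of immature cells, was 9.60 and 9.05 in flight, against 5.79 and 5.53 on the ground, and its difference of 3.67 became 3.03 with 32 added. Dcx, doublecortin, which binds microtubules in migrating neurons, rose by 2.98. All 3 were among the 12, so that the gap between their flight and ground-based arrays was fixed by the ranking.

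Of 29 measured neuronal markers 26 passed the filter, 10 of them with a ground-based mean below it, so that they passed through the flight arrays of both media. These 26 gave 23 rises and no fall, with a median of 1.70. Without the microgravity array 21 rose, where 3.79% of all tested genes did. With no filter on dim genes 25 of the 29 rose and none fell, with a median of 1.31, where 6.21% of all measured genes rose and 6.74% fell. The summed intensity of the 29 was 22570 and 20790 on the flight arrays, against 8886 and 8759 on the ground-based arrays. Tubb3, neuronal tubulin, was 9.69 and 9.38 in flight, against 7.35 and 7.29 on the ground, and Gria2, a glutamate receptor subunit, 8.95 and 8.46 in flight, against 5.58 and 5.92 on the ground. In growth medium 23 rose as well, where 8.10% of all tested genes did. Among 6 tested glial genes 3 rose, and 2 of the 6 had a ground-based mean below the filter and passed it only through other arrays. With no filter 4 of the 14 measured glial genes rose and none fell, with a median of 0.20, where 6.21% of all measured genes rose. Fabp7, a fatty acid carrier of radial glia, was 9.37 and 9.46 in flight, against 6.72 and 6.75 on the ground, while Gfap, Mbp and Sox10 lay between 0.11 and 0.28 and did not pass.

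Skeletal muscle markers gave 19 rises and no fall among 28, with a median of 0.65, and 13 passed without the microgravity array. Of these 28, 10 had a ground-based mean below the filter and passed it only through other arrays. With no filter 19 of the 33 measured rose and none fell, with a median of 0.54. Their summed intensity was 13840 and 12280 in flight, against 6405 and 6330 on the ground. Myh8, the perinatal myosin heavy chain, was 9.92 and 9.43 in flight, against 7.49 and 7.53 on the ground, a difference of 2.17, and Actc1, the cardiac actin also made in fetal muscle, rose by 2.42. Myod1 and Pax7, regulators of muscle precursors, were at 0.13 and 0.07 and did not pass. No marker of these lists was at 0, since an array gives every probe set an intensity. The part of the neuronal and muscle markers in the other differences of the same flight arrays was not tested.

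Imprinted genes, which are read from one parental copy and many of which steer fetal growth, were among the genes that rose most. Of 21 tested, 11 rose and 2 fell, with a median of 0.65, and 9 rose without the microgravity array. Of the 21, 5 had a ground-based mean below the filter and passed it only through other arrays. With no filter 15 of the 29 measured rose and 2 fell, with a median of 0.65. Meg3, a long noncoding RNA of chromosome 12, was 11.17 and 10.62 in flight, against 7.45 and 7.07 on the ground, a difference of 3.64 (SE 0.18, adjusted p = 2.42e-07). Igf2, the fetal insulin-like growth factor, was 10.57 and 10.35 in flight, against 7.85 and 7.99 on the ground, a difference of 2.54. Nnat, neuronatin, was 10.38 and 10.58 in flight, against 7.37 and 7.10 on the ground.

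The 2 flight arrays differed more for a few of the imprinted genes. Mest was 10.58 in microgravity and 9.04 on the centrifuge, against 6.23 and 6.17 on the ground, so that its difference of 3.61 was 2.83 without the microgravity array. Peg3, a zinc finger protein, was 9.54 and 8.56 in flight, against 6.68 and 6.77 on the ground, and Dlk1, an inhibitor of fat cell formation whose gene neighbours Meg3, 10.78 and 9.87 in flight, against 8.50 and 8.49 on the ground. Of 15 genes of the insulin-like growth factor axis 4 rose and none fell, namely Igf2 and the binding proteins Igfbp2, Igfbp3 and Igfbp5. Thus 26.7% rose, where 7.10% of all tested genes did. Igfbp3 lost its call without the microgravity array at 0.75 and without the ground unit array at 0.84.

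Meg3 begins a run of noncoding genes on chromosome 12 that ends at Mirg and holds a large cluster of miRNA genes. The interval was chosen after its values were seen. It holds 60 miRNA genes in the RefSeq table, of which 40 were measured and 17 passed the filter. Of these 17, 4 had a ground-based mean below the filter and passed it through the flight arrays of both media, and the counts over the 17 are a description only: 11 rose and none fell, and 5 passed as higher without the microgravity array. With no filter 22 of the 40 measured rose and none fell, with a median of 0.62. The probe sets read the hairpin or its host transcript, so that a rise says nothing of the mature miRNA.

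The mature sequences of the 3 miRNA genes with the largest rises are given with the seed, bases 2 to 8, in capitals (RefSeq, GRCm38.p6). All are on the plus strand of chromosome 12.
mmu-miR-487b-5p: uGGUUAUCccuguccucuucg
mmu-miR-329-3p: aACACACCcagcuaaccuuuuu
mmu-miR-329-5p: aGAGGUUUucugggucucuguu
mmu-miR-679-3p: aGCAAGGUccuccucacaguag
mmu-miR-679-5p: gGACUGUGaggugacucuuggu
The 11 genes that rose give 21 mature sequences in the table, with 21 different seeds, so that no seed is shared. Mir487b was 8.56 and 7.68 in flight, against 6.08 and 6.41 on the ground, a difference of 1.88 (SE 0.23, adjusted p = 0.000174). Mir329 was 8.49 and 7.81 in flight, against 6.69 and 6.64 on the ground, a difference of 1.48, and Mir679 9.69 and 9.51 in flight, against 8.69 and 8.59 on the ground, a difference of 0.96. The others lay between 0.35 for Mir431 and 0.80 for Mir370, and Mir431 lost its call without any 1 array.

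**Figure D4:**
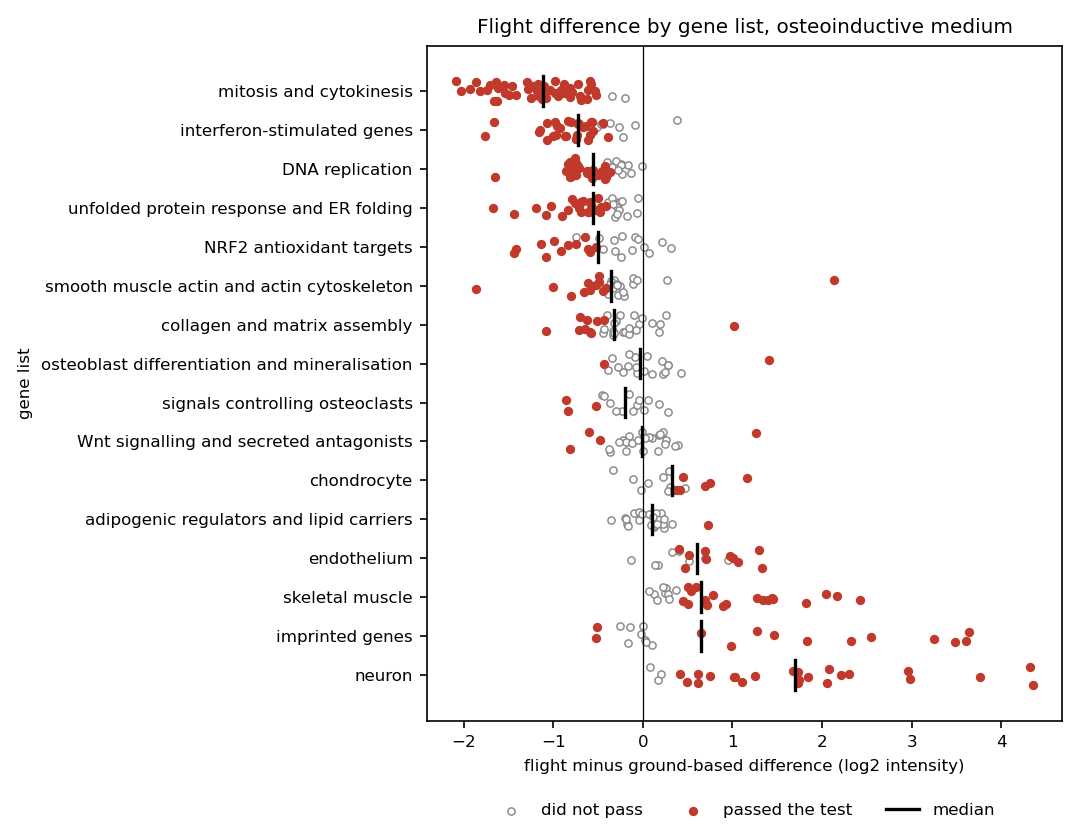
Flight minus ground-based difference in log2 intensity for the tested members of 16 gene lists in osteoinductive medium, 1 point a gene, filled where the gene passed the test, with a bar at each list's median. Mitosis genes lie almost wholly below 0 with a median of -1.11, neuronal genes almost wholly above 0 with a median of 1.70, and osteoblast genes around 0 with a median of -0.03.

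Within the flight pair, the microgravity array stood apart from the centrifuge array for a set of genes of the lung and of other epithelia. With 1 array a condition there is no test, and values are given alone. Of 13205 genes, 46 were at least 1 log2 unit higher in microgravity than on the centrifuge (0.348%) and 1, Mirlet7a-1, was at least 1 unit lower (0.00757%). Between the ground unit and the dish 0 genes differed by that much in either direction. The standard deviation of the difference over all genes was 0.218 log2 units in the flight pair and 0.154 in the ground pair.

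The 8 that were highest in microgravity against the centrifuge were Lyz1, Slc34a2, Sftpc, Sftpa1, Cbr2, Cldn18, Krt19 and Eln, with differences between 3.59 and 2.25. Sftpc, the surfactant protein made only by alveolar type II cells of the lung, was 12.81 in microgravity and 9.50 on the centrifuge, against 6.61 and 6.75 on the ground. It was high on both flight arrays, and in growth medium it was 10.56 and 10.27 in flight, against 6.78 and 6.75 on the ground. Slc34a2, the phosphate carrier of the same cells, was 10.79 and 7.35 in flight, against 6.71 and 6.55 on the ground, and Lyz1, a lysozyme, 11.59 and 8.00 in flight, against 6.78 and 6.89 on the ground. Without the microgravity array the flight difference was 2.82 for Sftpc, against 4.47 with it, 0.72 for Slc34a2, which then did not pass, and 1.17 for Lyz1, against 2.96 with it. Slc34a2 and Lyz1 did not pass without either ground-based array.

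Sftpa1 and Sftpb, further surfactant proteins, were 11.01 and 9.86 in microgravity, 8.16 and 7.68 on the centrifuge, and between 7.49 and 7.85 on the ground, so that for them the microgravity array alone stood out. Neither passed the flight test. Of the 15 tested lung epithelium genes 6 rose in the flight comparison, with a median of 0.80, and of 0.27 without the microgravity array. Of these 15, 4 had a ground-based mean below the filter and passed it only through other arrays. With no filter 7 of the 21 measured rose, where 6.21% of all measured genes did. The summed intensity of the 21 measured was 21890 in microgravity and 4919 on the centrifuge, against 3580 and 3519 on the ground. In growth medium it was 5849 and 4955 in flight, against 3281 and 3147 on the ground.

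The 8 that were lowest in microgravity against the centrifuge, Mirlet7a-1, Snora44, Madcam1, Kcnj14, Prp2, Cox6b1, C1ra and Cox20, differed less. Mirlet7a-1, the gene of a let-7 miRNA, was 7.31 in microgravity and 8.37 on the centrifuge, against 7.47 and 7.73 on the ground, and Cox6b1, a subunit of cytochrome oxidase, 9.11 and 9.97 in flight, against 9.34 and 9.44 on the ground. In the ground pair, Rny1, H2bc18, Macrod2 and Spc25 were highest in the unit against the dish and Slc10a6, Gatm, Aldh1a7 and Ctla2a lowest. Rny1, a small noncoding Y RNA, was 8.99 in the unit and 8.29 in the dish, and Slc10a6, a carrier of steroid sulphates, 7.53 in the unit and 8.38 in the dish.

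Markers of vessels and of epithelia in general followed the same order. Among 18 tested endothelial genes 10 rose, with a median of 0.609, and of 0.325 without the microgravity array. Of these 18, 8 had a ground-based mean below the filter and passed it only through other arrays. With no filter 10 of the 24 measured rose, where 6.21% of all measured genes did. Pecam1, the adhesion molecule CD31, was 8.86 and 7.64 in flight, against 6.95 and 6.95 on the ground, and Ramp2, a receptor partner for adrenomedullin, 10.06 and 8.85 in flight, against 7.99 and 8.25 on the ground. The summed intensity of the 24 measured was 7842 and 4734 in flight, against 3905 and 3948 on the ground. Among 13 tested general epithelial genes 6 rose, with a median of 0.56, and of 0.29 without the microgravity array. Of these 13, 2 had a ground-based mean below the filter, and with no filter 5 of the 23 measured rose. The summed intensity of the 23 was 6371 and 3947 in flight, against 3491 and 3377 on the ground. Krt7 was 9.53 and 7.81 in flight, against 7.49 and 7.46 on the ground, and its difference of 1.20 was 0.34 without the microgravity array and did not pass. Pecam1 lost its call without either ground-based array and Ramp2 without the ground unit array, at 1.30 and 1.20. The part of these markers in the other flight differences was not tested, and counts or medians without the microgravity array stand beside many of the groups above.

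**Figure D5:**
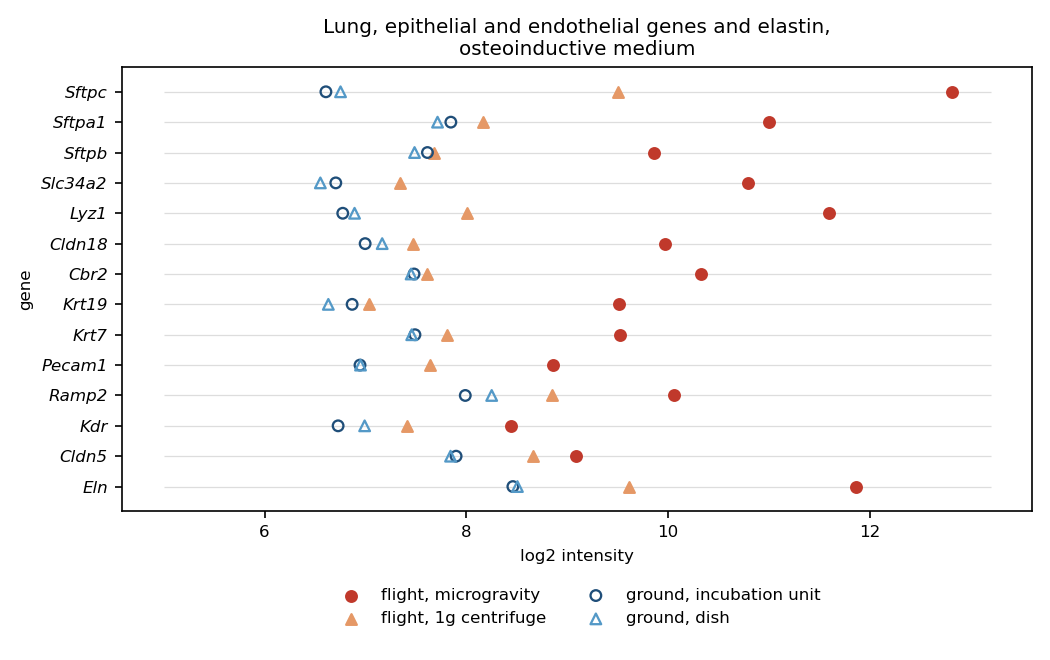
Log2 intensity of lung, epithelial and endothelial genes and of elastin in osteoinductive medium, 1 row a gene and 1 point an array (filled circle microgravity, filled triangle centrifuge, open circle ground unit, open triangle ground dish). The microgravity array lies to the right of the other 3 arrays in each row, by up to 3.59 log2 units over the centrifuge array for Lyz1.

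Across the genome the flight difference in osteoinductive medium was set against that in growth medium by the interaction. In growth medium 1833 genes changed (13.9%), and 1248 genes changed in both media, all in the same direction. In limma 0 of 13205 genes passed the interaction test. Its smallest adjusted p was 0.647, while 525 genes (3.98%) had an unadjusted p under 0.05. With 2 arrays a group, leaving out one array changed this count: 15 genes passed as higher without the osteoinductive centrifuge array, among them Sftpc, Slc34a2, Cldn18 and Eln, 15 as lower without the growth microgravity array, and 5 as lower without the growth centrifuge array, namely Ccnb2, Dlx5, Fgf13, H2bc14 and H4c3. Without each of the other 5 arrays the count was 0.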

How the data were processed

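RNA of mouse marrow stromal cells was hybridised to 8 whole-transcript gene arrays, 1 for each combination of medium and culture condition. The authors deposited 1 table of linear intensities, 1 value per probe set and array. RMA and GCRMA are named in the submitters' processing notes, with no version and no word on which made the table, and the build was not given in the sources used here. Per the labels, 100 ng of total RNA was amplified and labelled with biotin.

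Log2 of the intensities was taken with nothing added. Of 35557 probe sets, 21789 name 1 gene in the platform annotation, 1621 several and 12147 none. Where a gene had more than 1 probe set the brightest was kept, which gave 19938 genes, and 13205 with a mean log2 intensity of at least 7.14, the 40th percentile of the probe sets, were tested. limma 3.58.1 in R 4.3.3 (lmFit, eBayes) was fitted on all 8 arrays as 4 groups of medium and location, with 4 residual degrees of freedom, and every adjusted p in the text comes from it. The fitting code was tested on simulated data with known changes. The number of arrays limits the precision. Gene lists and members were chosen with earlier results of these data known. Named genes are the 12 highest and 12 lowest differences past the threshold, ranked by the smallest of the 4 flight to ground-based differences, the extremes of each array pair, and the members of each list with the largest differences beside its defining members. Predicted genes are not named. Alternatives changed the arrays in the fit, the normalization, the filter, the value added before log2, the choice of probe set and the variance model. Promoter and miRNA sequences are from RefSeq (GRCm38.p6). The promoter motifs and the miRNA interval were counted as descriptions.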

Additional observations from a re-analysis of the deposited data

How the results depend on the processing

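The count of 2479 changed genes was 3951 with the 4 osteoinductive arrays fitted alone, 2715 of them lower against 1541, with 2 residual degrees of freedom. It was 1586 with the filter at the 60th percentile, 347 of them higher against 938, where 8891 genes were tested. With each array centred on its median 2449 genes were lower. Quantile normalization, no filter, 32 added before log2, the mean of a gene's probe sets and the robust variance model gave counts between 2371 and 2583. Leaving out 1 array gave between 861 and 1266 changed genes, between 489 and 727 higher and between 372 and 610 lower. The interaction count was 0 under every setting with all arrays and between 0 and 15 with 1 array left out, between 0 and 15 higher and between 0 and 15 lower. No named gene that passed the test turned its direction. Of the called genes listed here by name, the robust variance model ended the calls of Sftpc (4.47), Lyz1, Slc34a2, Eln (2.26), Serping1, Krt7 and Ank. Quantile normalization ended those of Slc34a2, Krt7, Smoc2, Ank (-0.28), Csf1 (-0.35), Fzd2 (-0.32), Itgb5 (-0.32) and Tln1 (-0.25), 32 added those of Slc34a2, Krt7 and Smoc2, centring those of Smoc2 and Mir431, no filter those of Krt7, Smoc2, Mir431, Fzd2 and Ank, and the stricter filter that of Mir431. The cause was not tested. The labels give no replicate numbers, but a growth and an osteoinductive array share each of 4 culture conditions. With this condition as a block for the interaction, a setting chosen after seeing the data, 2 residual degrees of freedom remained, 0 genes passed and 635 had an unadjusted p under 0.05. The deviations of arrays that share a condition correlated over genes with r = 0.0758 in flight and 0.178 on the ground. The flight difference within osteoinductive medium has no such pairs. Genes near the background of the arrays have differences that the background compresses.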

Other observations

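In osteoinductive medium 18.8% of all tested genes changed, 7.10% higher and 11.7% lower. Among 22 tested Hox genes, which keep the positional identity of stromal cells, 1 fell and none rose: Hoxa11, a gene of the limb's middle segment, was lower by a log2 difference of -0.73. Among 21 chemokines and cytokines 6 fell and 1 rose, 33.3% in all, and 2 or 3 fell when 1 array was left out. Cx3cl1, the chemokine fractalkine, was 8.45 and 8.54 in flight, against 9.28 and 9.15 on the ground, a difference of -0.72, and Ccl2, which draws monocytes, was at -0.44 and did not pass. Among 15 complement genes 3 rose (20%), and between 0 and 3 when 1 array was left out, namely Serping1, the inhibitor of the first complement component, Clu and Vtn. Serping1 was 9.31 in microgravity and 7.68 on the centrifuge, against 7.10 and 7.03 on the ground, and its difference of 1.43 was 0.62 without the microgravity array. Serping1 lost its call without either ground-based array, and Clu and Vtn lost theirs without the microgravity array, at 0.68 and 0.42, and without the dish array, at 0.59 and 0.43. Matrix proteases and their inhibitors gave 1 rise and 1 fall among 25 (8%), and genes of prostaglandin synthesis and reception 1 rise and 2 falls among 14 (21.4%). Of the other blood markers, 0 of 4 tested lymphoid and granulocyte genes passed in limma (1 had an unadjusted p under 0.05), and of 4 red cell genes Tfrc fell. Of 7 tested liver and serum genes Ttr rose and Apoa1, Hp and Trf did not pass, at 0.23, 0.28 and 0.45.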
